A study of Danio rerio with 8 samples.

Results

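The melanin synthesis genes tyr, dct, tyrp1b and pmela were examined in melanomas of zebrafish in which dgat1a or egfp was expressed. They were read at the 4 Ensembl gene IDs listed for them, out of 22416 IDs in the deposited tables: ENSDARG00000039077 (tyr), ENSDARG00000006008 (dct), ENSDARG00000056151 (tyrp1b) and ENSDARG00000033760 (listed for pmela). The gene-name table used here pairs the first 3 with TYR, DCT and TYRP1. It pairs ENSDARG00000033760 with pmelb, a paralog of pmela, and pairs pmela with ENSDARG00000091298. ENSDARG00000033760 is therefore called pmelb below, and ENSDARG00000091298 is given beside the listed IDs as pmela, a choice made after its values were seen. TYRP1 is also the symbol of a second ID, ENSDARG00000029204.

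The dgat1a tumours carried Tg(mitfa:dgat1a) (n = 5) and the egfp tumours, the controls, Tg(mitfa:egfp) (n = 3). All 8 shared the strain background labelled tp53m214K/m214k, mitfa-/- and nras G12D, and were collected at an age of 10 to 12 weeks. The miniCoopR system, named in the series' design, links a mitfa rescue gene to the gene of interest, so that melanocytes restored in a mitfa mutant carry both. The mitfa promoter confines the transgene largely to the melanocyte lineage, and the profiles are of bulk tumour RNA. dgat1a is a zebrafish gene for diacylglycerol O-acyltransferase, an enzyme that completes triacylglycerol synthesis. The labels do not state whether the tumours came from separate fish, so the p-values measure the spread between these samples.

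Melanin is made inside melanosomes, organelles of pigment cells. Tyrosinase, encoded by tyr, oxidises tyrosine and sets the rate of the pathway. Dopachrome tautomerase (dct) converts dopachrome further along the eumelanin branch, and tyrosinase-related protein 1 (tyrp1b) belongs to the same enzyme family. The pmela product forms the amyloid fibrils on which melanin is deposited. In vertebrates these genes are known targets of MITF, the melanocyte lineage transcription factor, and they are classic readouts of melanocyte differentiation in melanoma.

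Libraries held 20936089 to 26865735 reads on the listed genes. Values are given as fpm, the per-million fragment signal as the authors scaled it. It summed to 907747 to 1053608 per library, so the scaling was not to an equal total. Differences were tested with limma on log2(fpm + 0.5). A gene counted as changed at a Benjamini-Hochberg adjusted p under 0.05 over the 16853 genes tested, whose mean over the tumours was 1 fpm or more. Of 2 IDs paired with DGAT1, ENSDARG00000103503 ranged from 2223 to 4160 fpm in dgat1a tumours and from 26.5 to 75.1 fpm in egfp tumours, the direction the labels give. The other, ENSDARG00000054914, was at 3.03 to 5.96 fpm in dgat1a tumours and 3.66 to 5.52 fpm in egfp tumours. The shared symbol does not tell which of the 2 is dgat1a, and reads of the transgene could not be separated. Summed fpm of 8 melanocyte marker IDs was 2493 to 4202 in dgat1a tumours and 2727 to 4890 in egfp tumours, and without the 2 MITF IDs among them it was 1757 to 2633 in dgat1a tumours and 1115 to 2053 in egfp tumours. egfp replicate 1 stood apart: 1232 genes were at 0 in it, against 353 to 777 in the other 7 tumours, and its summed fpm of 5 keratinocyte markers was 385, against 959 to 3339 in the others. In dgat1a replicate 3 the summed fpm of 7 iridophore marker IDs was 1657, against 205 to 374 in the other dgat1a tumours and 115 to 367 in the egfp tumours.

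None of the melanin genes passed the limma threshold. Of the 3 listed IDs that reached the tested level, 0 were called, as also with edgeR and DESeq2, and 1, tyr, was below 0.05 before adjustment. Over all tested genes limma called 0.0534%, and 0.0356% as higher in dgat1a tumours. The fitted log2 fold changes of tyr, dct, tyrp1b and pmela were positive, as were those of 53.6% of all tested genes. In tyr and pmela, 4 of 5 dgat1a tumours lay above every egfp tumour, and the exception in both was dgat1a replicate 3. At least 4 of 5 did so in 12.5% of all tested genes, which includes the 4.46% in which all 5 did. In bulk tissue, a higher share of pigmented cells and more of a transcript per cell cannot be told apart.

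Among the enzymes, tyr measured 291, 510.5, 135, 209 and 286 fpm in dgat1a replicates 1 to 5, against 173, 134 and 114 fpm in egfp replicates 1 to 3. The groups overlapped through dgat1a replicate 3, which lay between egfp replicates 1 and 2. The mean was 286 ± 141 fpm in dgat1a tumours (SD, n = 5) and 141 ± 30.1 fpm in egfp tumours (SD, n = 3). The log2 fold change of tyr was 0.91 ± 0.38 (SE), with a 95% interval of 0.06 to 1.76 (limma adjusted p = 0.309). Before adjustment tyr was below 0.05, as were 15.0% of all tested genes. Without dgat1a replicate 3 the log2 fold change of tyr was 1.145 (limma adjusted p = 0.277), and without egfp replicate 1 it was 1.07 (limma adjusted p = 0.544). It was lowest, at 0.67, without dgat1a replicate 2 (limma adjusted p = 0.393).

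For dct, values were 107, 89.6, 15.7, 61.0 and 90.7 fpm in dgat1a replicates 1 to 5, against 22.2, 65.0 and 13.0 fpm in egfp replicates 1 to 3. Here each group held both low and high tumours: dgat1a replicate 3 lay between the 2 lower egfp tumours, and egfp replicate 2 was above dgat1a replicate 4. The mean was 72.9 ± 36.1 fpm in dgat1a tumours (SD, n = 5) and 33.4 ± 27.7 fpm in egfp tumours (SD, n = 3). The log2 fold change was 1.18 ± 0.68 (SE), with a 95% interval of -0.35 to 2.71 (limma adjusted p = 0.433). Without dgat1a replicate 3 it was 1.66, and without egfp replicate 1 it was 1.05 (limma adjusted p = 0.278 and 0.719). It was 1.81 without egfp replicate 2 and 0.67 without egfp replicate 3 (limma adjusted p = 0.226 and 0.674).

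The widest spread among the melanin genes was that of tyrp1b. It measured 2156, 2743, 84.5, 889 and 1981 fpm in dgat1a replicates 1 to 5, against 1957, 259.9 and 1135 fpm in egfp replicates 1 to 3. The highest dgat1a tumour held 32.5 times the fpm of the lowest, and the highest egfp tumour 7.53 times that of the lowest. The lowest egfp tumour, replicate 2, was the one with the highest dct. The SD of tyrp1b within groups, 1.89 on the log2(fpm + 0.5) scale, was above that of 98.7% of tested genes, and that of dct, at 1.13, was above 91.2%. The within-group SD of pmela was above 89.0% of tested genes, and that of tyr above 67.7%.

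The mean of tyrp1b was 1571 ± 1068 fpm in dgat1a tumours (SD, n = 5) and 1117 ± 849 fpm in egfp tumours (SD, n = 3). Its log2 fold change was 0.23 ± 1.11 (SE; limma adjusted p = 0.937). The 95% interval, from -2.28 to 2.73, spans 0.206-fold to 6.65-fold, so a difference of several fold in either direction lies within the error of these tumours. The direction itself depended on single tumours: the log2 fold change was 1.11 without dgat1a replicate 3, 0.84 without egfp replicate 1 and -0.61 without egfp replicate 2. It was also below 0, between -0.14 and -0.03, without dgat1a replicate 1, 2 or 5.

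**Figure D1:**
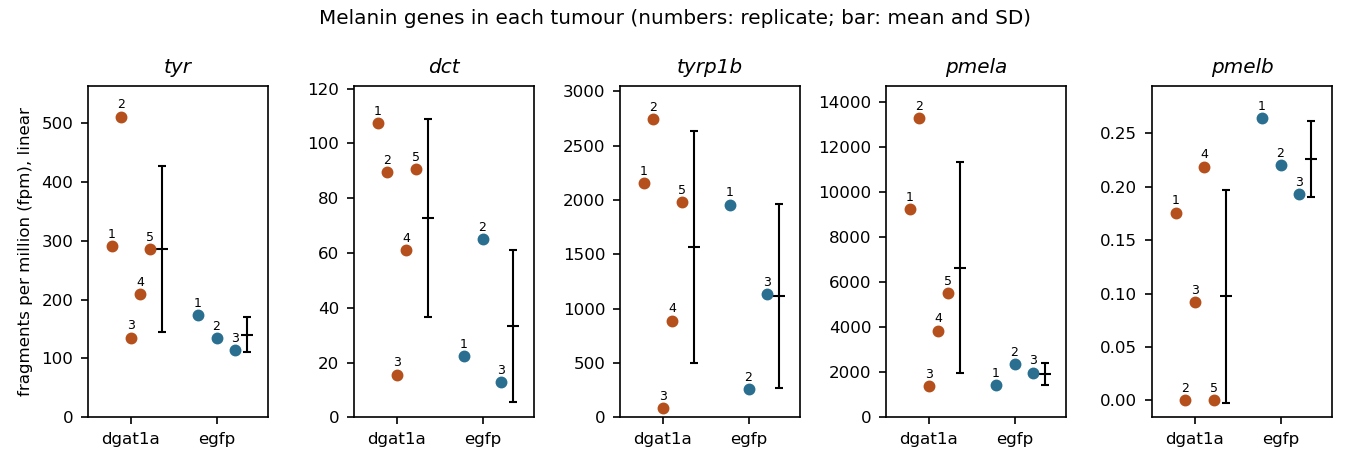
Signal in fpm (linear axes, each starting at or just below 0) of tyr, dct, tyrp1b, pmela and pmelb in dgat1a tumours (left in each panel, n = 5) and egfp tumours (right, n = 3); points are tumours numbered by replicate, and bars are the mean and SD. dgat1a replicate 3 is the lowest dgat1a tumour for tyr, dct, tyrp1b and pmela, and pmelb stays under 0.265 fpm.

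The fibril gene pmela was at 9225, 13275, 1398, 3843 and 5508 fpm in dgat1a replicates 1 to 5, against 1433, 2373 and 1989 fpm in egfp replicates 1 to 3. The 3 egfp tumours lay close together, within 1.66-fold, whereas dgat1a tumours spanned 9.50-fold. In dgat1a tumours 4 of 5 were above the egfp range, and dgat1a replicate 3 was below it. The mean was 6649.7 ± 4671 fpm in dgat1a tumours (SD, n = 5) and 1932 ± 473 fpm in egfp tumours (SD, n = 3). The log2 fold change was 1.45 ± 0.63 (SE), with a 95% interval of 0.02 to 2.87 (limma adjusted p = 0.328), and pmela too was below 0.05 before adjustment.

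The call on pmela depended on the fit, also between fits with DESeq2. DESeq2 on the recovered whole reads gave a log2 fold change of 1.78 (adjusted p = 0.0455). It called 5.20% of the genes to which it gave an adjusted p, and 2.35% as higher. The edgeR quasi-likelihood test gave 1.78 (adjusted p = 0.243) and called 0.0178% of the genes, 0.0119% as higher. The authors' deposited table lists pmela at 1.43 ± 0.49 (SE) on the log2 scale (adjusted p = 0.0687). The authors' deposited table gave 0.92 for tyr (adjusted p = 0.156), 0.88 for dct (adjusted p = 0.357) and 0.33 for tyrp1b (adjusted p = 0.818). It called 4.34% of the genes with an adjusted p. Its DESeq2 version differs from the one used here (1.42.0), so its fold changes may be estimated in another way. Without dgat1a replicate 3 the log2 fold change of pmela was 1.92 (limma adjusted p = 0.229), and without egfp replicate 1 it was 1.24 (limma adjusted p = 0.653). It was lowest, at 1.104, without dgat1a replicate 2 (limma adjusted p = 0.440).

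The paralog pmelb was near the limit of what this depth could show. It had 4, 0, 2, 6 and 0 reads in dgat1a replicates 1 to 5, and 6, 5 and 5 reads in egfp replicates 1 to 3. A value of 3 reads, the limit that a count of 0 allows, corresponded to 0.109 to 0.138 fpm, a floor that covers counting error only. pmelb was at 0.0973 ± 0.0998 fpm in dgat1a tumours (SD, n = 5) and 0.226 ± 0.0359 fpm in egfp tumours (SD, n = 3), below the minimum for testing. Without that minimum its log2 fold change was -0.30 (limma adjusted p = 0.501). The authors' deposited table lists pmelb at -0.60 ± 0.63 (SE) on the log2 scale, without an adjusted p.

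The pairs of melanin genes had positive correlations over the tumours, which passed the threshold by both measures for tyr with pmela and dct with pmela. Between tyr and pmela, Pearson's r over the 8 tumours on log2(fpm + 0.5) was 0.91 (exact permutation p = 0.00191, adjusted over 6 pairs 0.0115) and Spearman's rho was 0.81 (exact permutation p = 0.0218, adjusted 0.0335). Without the 2 tumours farthest from the median of tyr, dgat1a replicate 2 and egfp replicate 3, r was 0.88 (exact permutation p = 0.0361). Between dct and pmela r was 0.84 (exact permutation p = 0.0144, adjusted 0.0432) and rho 0.83 (exact permutation p = 0.0154, adjusted 0.0335), and r was 0.85 without dgat1a replicate 3 and egfp replicate 3 (exact permutation p = 0.0153). On deviations from the group means, given as a description, r was 0.85 for tyr and pmela, 0.80 for tyr and tyrp1b, 0.78 for dct and pmela, 0.74 for tyrp1b and pmela, 0.66 for tyr and dct and 0.48 for dct and tyrp1b.

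In the other pairs the adjusted p of Pearson's r missed the threshold, while that of rho passed except for dct and tyrp1b. For tyr and dct r was 0.76 (exact permutation p = 0.0315, adjusted 0.063) and rho 0.79 (exact permutation p = 0.0279, adjusted 0.0335), and r without dgat1a replicate 2 and egfp replicate 3 was 0.72 (exact permutation p = 0.126), so this relation did not pass without those tumours. tyrp1b had r of 0.66 with tyr, 0.62 with pmela and 0.45 with dct (exact permutation adjusted p = 0.114, 0.114 and 0.267), and rho of 0.79, 0.79 and 0.64 (exact permutation adjusted p = 0.0335, 0.0335 and 0.0962). Without the 2 tumours farthest from the median of the first gene of each pair, r of tyrp1b was 0.82 with tyr, 0.54 with pmela and 0.09 with dct (exact permutation p = 0.0569, 0.256 and 0.819). The departure of dct and tyrp1b from one another lay in the egfp tumours. There, replicate 2 was highest for dct and lowest for tyrp1b, so replicates 1 and 3 were both lower for dct and higher for tyrp1b than replicate 2.

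**Figure D2:**
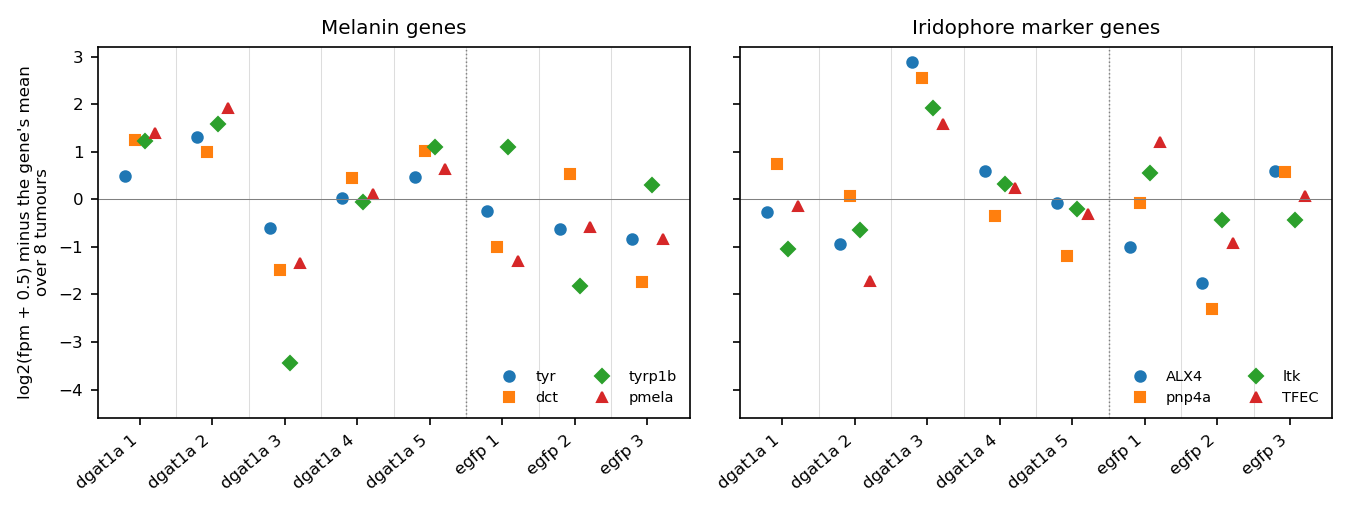
Level of each gene in each tumour as log2(fpm + 0.5) minus that gene's mean over the 8 tumours, for tyr, dct, tyrp1b and pmela (left panel) and for the iridophore markers ALX4 (ENSDARG00000088332), pnp4a, ltk and TFEC (right panel); dgat1a tumours stand left of the dotted line and egfp tumours right of it. In dgat1a replicate 3 all 4 melanin genes are below their means and all 4 iridophore markers are at their highest.

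Whether the genes differed between the groups by unequal amounts was asked with ratios taken within each tumour, which hardly depend on how a library was scaled. In none of the 6 pairs did the difference between the groups pass the threshold. The largest difference, that of tyrp1b over pmela, was -2.40 ± 0.97 log2 units in dgat1a tumours (SD, n = 5) and -1.18 ± 1.85 in egfp tumours (SD, n = 3), a difference of -1.22 (two-sided exact permutation p = 0.268, adjusted over 6 pairs 0.75). For tyr over pmela the log2 ratio was -4.30 ± 0.62 in dgat1a tumours and -3.77 ± 0.63 in egfp tumours (SD, n = 5 and 3; exact permutation p = 0.25, adjusted 0.75). Without egfp replicate 2 the difference of tyrp1b over pmela was -2.22 and the largest was that of dct over tyrp1b, 2.42, against 0.95 with all tumours (exact permutation p = 0.0476 and adjusted p = 0.143 for both). Without egfp replicate 1 that of tyrp1b over pmela was -0.40. The smallest p that 5 tumours against 3 allow is 0.0179, so a single pair alone could not pass after adjustment over 6 pairs. Without egfp replicate 2 the smallest possible p is 0.0476, the value of both pairs given above. These tests could therefore hardly pass, and the lack of a call does not show equal amounts. The ratio of tyr to tyrp1b stood apart in dgat1a replicate 3, at 0.68, against -2.89 to -2.08 in the other dgat1a tumours and -3.49 to -0.95 in the egfp tumours.

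**Figure D3:**
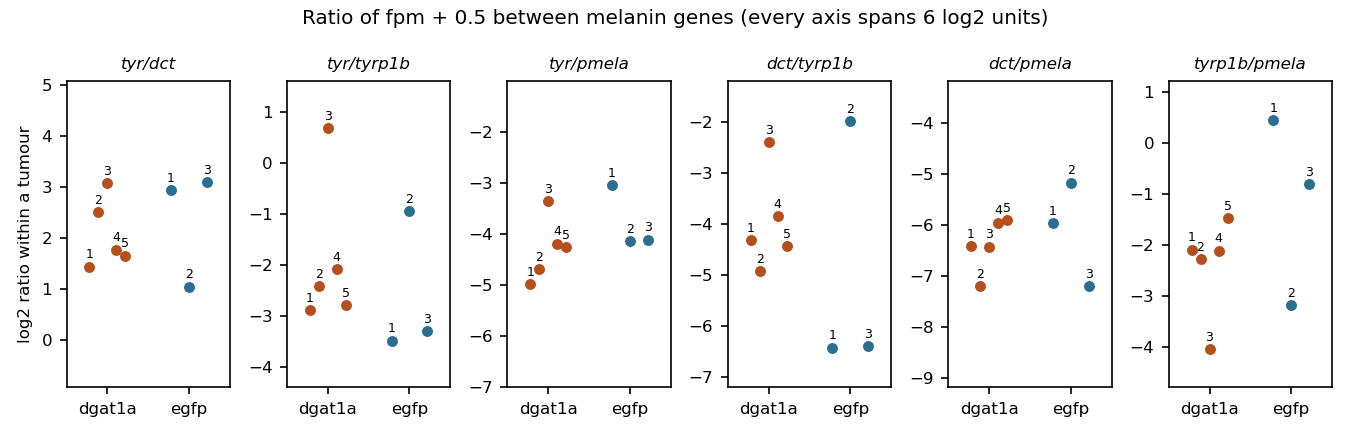
log2 ratio of fpm + 0.5 between each pair of melanin genes within a tumour, in dgat1a tumours (left in each panel, n = 5) and egfp tumours (right, n = 3); points are tumours numbered by replicate, and every vertical axis spans the same number of log2 units. The groups overlap in all 6 pairs, and dgat1a replicate 3 is the highest point for tyr/tyrp1b and the lowest for tyrp1b/pmela.

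Other genes of the melanosome, from a list of transporters, trafficking factors and structural proteins, were set beside these genes. Of 36 tested IDs, 0 passed the limma threshold in either direction, 9 had an unadjusted p under 0.05 and a higher value in dgat1a tumours, and 1 had a lower one. edgeR and DESeq2 also called 0 of the 36. Among all tested genes 6.83% were higher and 8.18% lower at that unadjusted level. The log2 fold change was positive in 31 of the 36, with a median of 0.39, against a median of 0.04 over all tested genes. The groups did not overlap in 5 of the 36, where 10.4% of all tested genes did not and 4.46% did not with every dgat1a tumour higher. Those 5 were MLPH, BACE2, RAB27A, AP3B1 and VPS39, each higher in dgat1a tumours and named here after their values were seen.

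Next come the 10 melanosome IDs with the highest mean fpm. MLPH, the melanophilin that links melanosomes to myosin, measured 626, 1231, 362, 511 and 525 fpm in dgat1a replicates 1 to 5 and 236, 323 and 343 fpm in egfp replicates 1 to 3. Its log2 fold change was 1.003 ± 0.36 (SE; limma adjusted p = 0.258). That of MYO5A, the myosin it binds, was 0.58 ± 0.24 (SE), that of the tetraspanin gene tspan36 was 0.57 ± 0.22 and that of BACE2, a protease that in mammals cleaves PMEL, was 0.82 ± 0.32 (limma adjusted p = 0.311, 0.288 and 0.293). ATP7A, which supplies copper to tyrosinase, had 0.58 ± 0.30, and SLC45A2, a melanosomal transporter, had 0.27 ± 0.32 (limma adjusted p = 0.383 and 0.700). The channel gene trpm1b and the trafficking genes AP3D1 and HPS3 had log2 fold changes of 0.02, 0.03 and -0.05, each of which changed sign when single tumours were left out.

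The second TYRP1 ID, ENSDARG00000029204, was at 281, 81.4, 36.5, 42.4 and 232 fpm in dgat1a replicates 1 to 5 and 170.05, 74.4 and 37.1 fpm in egfp replicates 1 to 3, with a log2 fold change of 0.31 ± 0.76 (SE; limma adjusted p = 0.869) that was negative without dgat1a replicate 1 or 5 or egfp replicate 3. Reads shared by the paralogs could not be assessed. SLC24A5, the melanosomal exchanger behind the golden phenotype of zebrafish, was named after its values were seen. It measured 180.3, 123, 3.09, 67.9 and 66.3 fpm in dgat1a replicates 1 to 5 and 79.6, 18.7 and 37.6 fpm in egfp replicates 1 to 3. Like tyrp1b, it was lowest in dgat1a replicate 3 and, among egfp tumours, in replicate 2. Of 11 tested IDs for copper supply and organelle acidification, 0 passed with limma, edgeR or DESeq2. The log2 fold change was positive in 10 of the 11, where it was in 53.6% of all tested genes. The median was 0.44, against 0.04 over all tested genes. At an unadjusted limma p under 0.05, 1 ID was higher, near the share of 6.83% over all tested genes. The ID was a proton pump subunit gene, ATP6V0C (ENSDARG00000057853), at 344 ± 115 fpm in dgat1a tumours (SD, n = 5) and 188 ± 4.23 fpm in egfp tumours (SD, n = 3; limma adjusted p = 0.242).

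Regulators of the melanocyte lineage had fold changes of both signs, positive in 10 of 20. Of 20 tested IDs 0 passed with limma or edgeR and 2 with DESeq2, which were MC1R (higher) and a low-level PAX3 ID, ENSDARG00000028348 (lower, at most 1.93 fpm in dgat1a tumours and 0.154 to 28.1 fpm in egfp tumours). DESeq2 called 5.20% of all genes. With limma 4 were higher and 1 lower at an unadjusted p under 0.05, where 6.83% of all tested genes were higher and 8.18% lower, and the median log2 fold change was -0.07. The lower one was MITF (ENSDARG00000003732), at 1565, 685, 733, 1192 and 793 fpm in dgat1a replicates 1 to 5 and 1807, 2851 and 1609 fpm in egfp replicates 1 to 3. The groups did not overlap, and the log2 fold change was -1.103 ± 0.32 (SE; limma adjusted p = 0.216). Groups without overlap were met in 3 of the 20 IDs (MITF, KIT and MC1R), near the 10.4% of all tested genes. A second MITF ID, ENSDARG00000037833, had -0.15 ± 0.43 (SE; limma adjusted p = 0.890). Reads of the vector's own mitfa rescue gene, present in both groups, could not be separated. KIT, the receptor for the melanocyte survival factor, had 0.97 ± 0.33 with groups that did not overlap, and its ligand gene kitlga had 1.105 ± 0.47 (limma adjusted p = 0.246 and 0.317). MC1R, the melanocortin receptor that stimulates eumelanin synthesis in mammals, was named after its values were seen. It measured 90.4 ± 24.3 fpm in dgat1a tumours (SD, n = 5) and 46.6 ± 5.45 fpm in egfp tumours (SD, n = 3), without overlap (limma adjusted p = 0.201; DESeq2 adjusted p = 0.0215).

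The neural crest factor SOX10 had means close together, at 947 ± 118 fpm in dgat1a tumours (SD, n = 5) and 957 ± 251 fpm in egfp tumours (SD, n = 3). Its log2 fold change of 0.01 changed sign under several settings. Relative to SOX10 in each tumour, the log2 group difference was 0.90 for tyr, 1.17 for dct, 0.21 for tyrp1b and 1.43 for pmela. Each of these is by construction the gene's own log2 fold change minus that of SOX10. They are therefore no separate check on the share of melanocytes. The remaining regulators among the 10 with the highest mean fpm were not called either. Their log2 fold changes were -0.19 for TFAP2A, -0.25 for CTNNB1, -0.47 for TFAP2E, -0.48 for PAX3 (ENSDARG00000010192), 0.28 for EDNRB (ENSDARG00000089334) and 0.42 for FOXD3. TFAP2A was higher in dgat1a tumours under quantile normalization and without egfp replicate 1, and FOXD3 was lower without egfp replicate 1.

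**Figure D4:**
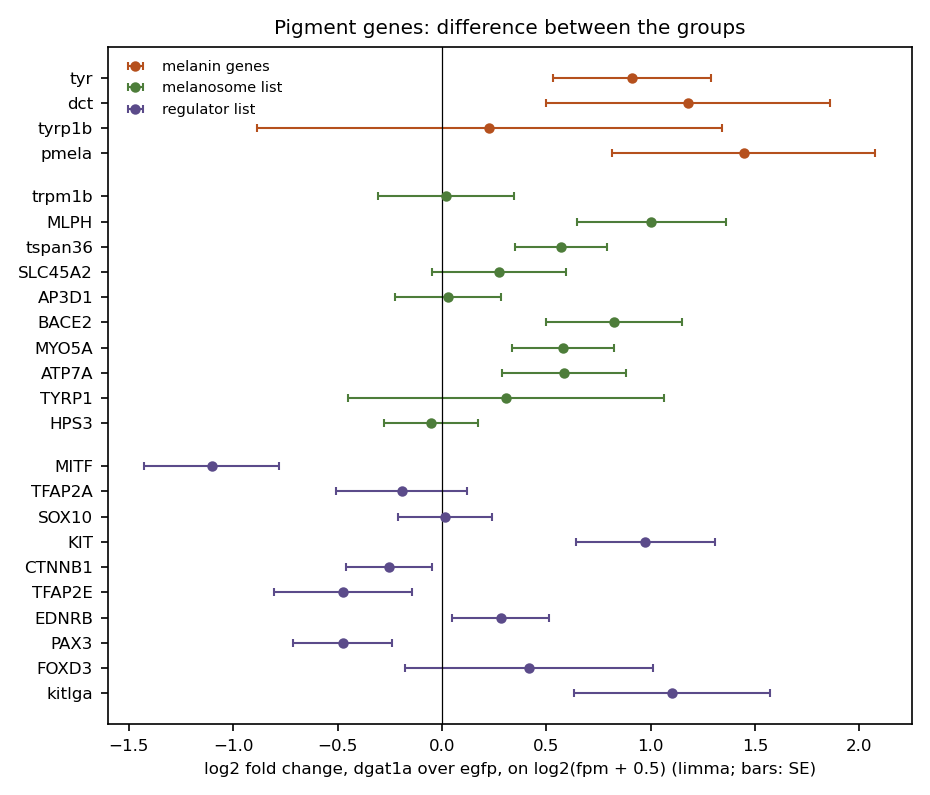
log2 fold change of dgat1a over egfp tumours on log2(fpm + 0.5) from limma, with standard errors as bars, for the melanin genes and for the 10 IDs with the highest mean fpm in the melanosome and regulator lists. tyr, dct, tyrp1b and pmela lie between 0.23 and 1.45 and MITF lies at -1.103; none of the genes shown passed the adjusted threshold.

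Markers of other cells were read beside these values, since other pigmented cells can also carry melanin gene transcripts. dgat1a replicate 3, the dgat1a tumour with the lowest tyr, dct, tyrp1b and pmela, had the highest fpm of all 5 dgat1a tumours in 6 of 6 tested iridophore IDs, where it was highest in 22.5% of all tested genes. ALX4 (ENSDARG00000088332) was at 839 fpm there, against 58.6 to 171 fpm in the other dgat1a tumours and 33.2 to 171 fpm in egfp tumours. pnp4a, a purine synthesis gene of iridophores, was at 331 fpm in that tumour, against 24.2 to 93.6 fpm in the other dgat1a tumours and 11.02 to 84.1 fpm in egfp tumours. ltk and TFEC were at 156 and 196 fpm there, each its highest value among the 8 tumours. Among the 36 tested melanosome IDs, that tumour was the lowest dgat1a tumour in 12 (33.3%) and the highest in 9 (25%). Among all tested genes it was lowest in 23.2%. The part of iridophores in the low melanin genes of that tumour was not tested.

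Of the iridophore IDs, FHL2 (ENSDARG00000042018) differed between the groups most, at 30.9 ± 21.3 fpm in dgat1a tumours (SD, n = 5) and 2.996 ± 0.49 fpm in egfp tumours (SD, n = 3), without overlap (limma adjusted p = 0.0908; DESeq2 adjusted p = 1.18e-07). For the retinal pigment epithelium, also a melanin-making tissue, the summed fpm of 3 marker IDs was 7.76 to 13.4 in dgat1a tumours and 9.61 to 36.1 in egfp tumours, and rlbp1b was at most 1.11 fpm. Of these RPE65 (ENSDARG00000094752) was at 4.55 to 8.51 fpm in dgat1a tumours and 7.18 to 31.0 fpm in egfp tumours (limma adjusted p = 0.215), and DESeq2 called it lower. The RPE65 IDs were matched without the paralog letter. Another RPE65 ID and the listed marker lrata had no values, so the sum covers only part of the list. The xanthophore markers summed to 162 to 589 fpm in dgat1a tumours and 102 to 445 fpm in egfp tumours. Of the xanthophore IDs slc2a15b was named after its values were seen. At 33.0 fpm in dgat1a replicate 3 and 39.8 fpm in egfp replicate 2, it was lowest in each group in the same tumours as tyrp1b. This held for aox5 too, but not for gch2, SCARB1 or PAX7 (ENSDARG00000100398), the other tested xanthophore IDs. Summed markers of keratinocytes spanned 959 to 3339 fpm in dgat1a tumours and 385 to 3135 fpm in egfp tumours, and those of macrophages 298 to 690.3 fpm in dgat1a tumours and 196 to 354 fpm in egfp tumours. Those of fibroblasts spanned 401 to 964 fpm in dgat1a tumours and 121 to 1200 fpm in egfp tumours. The 3 skeletal muscle IDs summed to 2.41 to 737 fpm in dgat1a tumours, of which replicates 1, 3 and 5 were above 140 fpm, and to 0.927 to 12.5 fpm in egfp tumours, and DESeq2 called 2 of them, actc1b and ckma, higher. The neutrophil gene lyz was at 0.146 to 1.49 fpm in dgat1a tumours and 0 to 0.044 fpm in egfp tumours, without overlap and below the minimum for testing. The erythrocyte gene hbaa1 spanned 45.9 to 263 fpm in dgat1a tumours and 176 to 604 fpm in egfp tumours, and 3 endothelial IDs summed to 50.2 to 98.6 fpm in dgat1a tumours and 51.4 to 105 fpm in egfp tumours. No marker ID was called by limma or edgeR. Over all genes DESeq2 called 5.20%, and 2.35% as higher, and in 10.4% of all tested genes the groups did not overlap. No marker ID could be at 0 in every tumour, because every gene the authors deposited had 16 or more reads over the tumours. The part of these cells in the group values of the melanin genes was not tested.

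The genes most like the melanin genes over the 8 tumours were found by Pearson's r with the mean of the 4 listed IDs, each centred on its own mean, as a description. Among 16850 other tested genes the highest r were those of ASPG (0.97), si:ch73-141c7.1 (0.96), ciz1a (0.95), B3GALNT2 (0.95) and SLC24A4 (0.94, ENSDARG00000015425). Among them ASPG was at 6.63 to 14.7 fpm in dgat1a tumours and 8.11 to 10.7 fpm in egfp tumours. SLC24A4, already in the melanosome list, encodes a potassium-dependent sodium-calcium exchanger and is linked to human pigmentation. It spanned 0.415 to 11.6 fpm in dgat1a tumours and 1.41 to 3.79 fpm in egfp tumours. pmela ranked 74th with an r of 0.86. Over only 8 tumours, some of so many genes reach a high r without any relation. These values and ranks, and those below, were not tested and show no shared control. On deviations from the group means the highest were ciz1a and LRCH2 (both 0.99), then POFUT1 and PXMP4 (both 0.97) and ASPG (0.96). With pmela in place of pmelb in the mean, a choice made after the data were seen, genes with a high r included B3GALNT2 (0.96), tns3.1 (0.96), SLC39A10 (0.95) and NUDT6 (0.95). Of these SLC39A10, a zinc transporter gene, was at 146 fpm in dgat1a replicate 3, 697 to 1526 fpm in the other dgat1a tumours and 208 to 292 fpm in egfp tumours. The profile weights tyrp1b most, because its values span the widest range.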

How the data were processed

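Groups and numbers of the 8 tumours came from their titles, and RNA from a Trizol extraction, per the labels' protocols. Tools named in the submitters' processing notes are STAR 2.5.3, featureCounts 1.6.2 and DESeq2 1.14.1, with build GRCz11; strandedness and gene filters are not given in the sources used here.

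The authors deposited a per-million signal for each tumour (fpm), variance-stabilised values on a log2 scale, and their own comparison with a mean signal, each log2 fold change and standard error, the quotient of both (a score) and p-values, per the file headers. In every library 100% of the values below 2000 reads were multiples of what 1 read was worth (tolerance 0.01 reads), so whole reads were recovered. The closest pair of libraries differed by a chi-square of 85.3 per degree of freedom, so no library was a duplicate.

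limma 3.58.1 (R 4.3.3; intensity trend, two-sided, Benjamini-Hochberg) tested log2(fpm + 0.5) for genes whose mean was 1 fpm or more. Fold changes of low genes are understated on this scale. edgeR 4.0.16 and DESeq2 1.42.0 on recovered reads, other pseudocounts, filters, scalings, weights, 3 dgat1a tumours, a replicate block and leaving out each tumour were alternatives. Fits were checked on simulated data. Ratios within tumours were tested over all 56 splits and correlations over all pairings. Members and lists were chosen with earlier results of these data known. Named genes were the listed IDs and, per list, those past the threshold and the 10 with the highest mean fpm, with the exceptions stated. A gene-name table paired 21017 of 22416 IDs with symbols; list symbols were matched ignoring case, otherwise without the paralog letter, keeping every ID. Ratios and correlations used pmela in place of pmelb, which was near the floor. No gene lengths were used, so the order by mean fpm that chose the named genes, and sums over markers, favour long genes and are no comparison of levels.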

Additional observations from a re-analysis of the deposited data

Results flagged for a closer look

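Within the 5 dgat1a tumours, a gap test (Dixon's ratio of the gap at one end to the whole range, on log2(fpm + 0.5), critical value 0.71) was made for 35 IDs, of which 2 passed. Chance flags about 1 in 20 groups, and 2 of 35 is near that share. tspan36 had a ratio of 0.835 and SLC24A5 a ratio of 0.746, both from a low value in dgat1a replicate 3. SLC24A5 was among the IDs named after their values were seen, so its flag is no independent result. In that tumour tspan36 was at 323 fpm, against 472 to 509 fpm in the other dgat1a tumours and 241 to 350.5 fpm in egfp tumours. SLC24A5 was at 3.09 fpm there, against 66.3 to 180.3 fpm in the other dgat1a tumours and 18.7 to 79.6 fpm in egfp tumours. The ratios of dct (0.704) and tyrp1b (0.676) in the same tumour were just under the critical value. The egfp group, with 3 tumours, was not tested.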

How the results depend on the processing

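The log2 fold changes of tyr, dct and pmela were positive under all 21 other settings each, and leaving out 1 tumour moved them between 0.67 and 1.145, 0.67 and 1.81, and 1.104 and 1.92. The filters and the intensity trend cannot change a log2 fold change, and the block cannot in the same 6 tumours. These settings are therefore no separate check of direction. No setting called tyr, dct or tyrp1b. DESeq2 on recovered reads was the only setting that called pmela (1.78), which the authors' deposited table did not. tyrp1b turned negative with dgat1a replicates 1 to 3 only and with the replicate block (-0.068 each), and leaving out 1 tumour moved it between -0.61 and 1.11. The difference in pmelb, -0.30 without a test, was -0.88 with a pseudocount of 0.1. The count of genes called, 9, was 3 with the edgeR quasi-likelihood test, 866 with DESeq2, 4 with dgat1a replicates 1 to 3 only, 0 with the replicate block (2080 at an unadjusted p under 0.05) and 5 to 55 when 1 tumour was left out, lowest without egfp replicate 1 and highest without egfp replicate 2. Same-numbered tumours deviated together with r of 0.24, 0.07 and 0.01 across genes. Differently numbered tumours of the 2 groups had r from -0.25 to 0.20, so the 0.24 of replicates 1 was the highest. The numbers were not taken to pair the tumours, and these values do not settle whether they do. With the replicate block tyr, dct and pmela were 0.97, 0.99 and 1.55. With 1 tumour of each group per block, these equal the values without the block in the same 6 tumours by construction. They are therefore no check of pairing. Leaving out 1 tumour moved the ratio difference of tyr/dct between -0.93 and 0.10, that of dct/pmela between -0.81 and 0.20, that of tyrp1b/pmela between -2.22 and -0.40, that of dct/tyrp1b between 0.21 and 2.42, that of tyr/tyrp1b between 0.036 and 1.497 and that of tyr/pmela between -0.77 and -0.17. Causes were not tested.

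Of 630 values of 30 other named genes, including settings that cannot change direction, 596 kept their direction and side of the threshold. Another 31 turned direction, all of genes not called. Outside single tumours left out, these were trpm1b (-0.075 with dgat1a replicates 1 to 3 only, with or without the block), HPS3 (0.16 in both), AP3D1 (-0.020 with sample weights), TFAP2A (0.058 with quantile normalization) and SOX10 (-0.0016, -0.017 and -0.0091 with sample weights, edgeR and DESeq2). Leaving out 1 tumour moved trpm1b between -0.30 and 0.27, SLC45A2 between -0.0086 and 0.56, AP3D1 between -0.086 and 0.15, TYRP1 (ENSDARG00000029204) between -0.22 and 0.87, HPS3 between -0.15 and 0.077, SLC24A5 between -0.10 and 1.37, TFAP2A between -0.54 and 0.17, SOX10 between -0.23 and 0.14, FOXD3 between -0.16 and 1.19, TFEC between -0.71 and 0.36 and ltk between -0.29 and 0.51. DGAT1 (ENSDARG00000103503) missed the threshold with the block. Depth limited only pmelb among the melanin genes.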
